A study of Mus with 2 samples.

Results

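Immediate-early genes are switched on directly by signalling, without prior protein synthesis. Their products are mainly transcription factors that act on later genes. *Fos*, *Fosb*, *Jun* and *Junb* encode subunits of the AP-1 transcription factor, and *Atf3* encodes a related stress-induced leucine zipper factor. *Egr1* encodes a zinc finger factor downstream of serum response factor, and *Nr4a1*, *Nr4a2* and *Nr4a3* encode orphan nuclear receptors. *Ccn1* encodes a secreted matricellular protein that is a target of YAP and of serum response factor. In brown fat, beta-adrenergic signalling through cAMP is a known inducer of *Nr4a* and *Fos* family genes, and tissue handling is a known inducer in many cell types. These 10 genes, chosen with earlier results of these data known, were taken from the 32285 genes in the files. They were described gene by gene in every class of nuclei of interscapular brown adipose tissue (iBAT).

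The nuclei came from frozen iBAT of C57BL/6 mice aged 8 weeks on a normal chow diet. 1 library was made from *Wtap* flox/flox mice, and the other from mice labelled *Wtap*-BKO, which carry the same floxed alleles and UCP1-iCre, a Cre recombinase driven from *Ucp1* and thus meant for brown adipocytes. Each library pooled nuclei of 4 mice, so each genotype had 1 library, no replicate and no test between genotypes. Values are raw counts of unique molecular identifiers (UMIs), given as counts per 1000000 UMIs of the class (CPM). Each stands with a 95% interval that takes in counting error alone and says nothing of the spread between mice or preparations.

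The *Wtap* flox/flox library held 9494 nuclei with a median of 954 UMIs, and the library labelled *Wtap*-BKO held 8772 with a median of 1306. Both libraries had a minimum of 500 UMIs per nucleus, and 20 barcodes occurred in both. Mitochondrial genes took 7.60% and 11.7% of UMIs. Of the targeted gene, exon 4 alone is floxed, and the counts are per gene and not per exon, so UMIs from the rest of *Wtap* do not check the deletion or the labels. In adipocyte-like nuclei *Wtap* had 382 UMIs (CPM 50.3) with the label *Wtap* flox/flox and 405 UMIs (CPM 48.6) with the label *Wtap*-BKO, so that the log2 ratio was -0.05 (-0.26 to 0.15). It was 0.12 (-0.15 to 0.39) in the other nuclei. Every direction below follows the labels, and genotype, pool and preparation cannot be told apart.

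Clustering without these genes gave 14 clusters. Adipocyte-like nuclei numbered 6749 in the *Wtap* flox/flox library and 4930 in the library labelled *Wtap*-BKO. Endothelial-like nuclei numbered 1139 and 771, pericyte-like 447 and 213, and fibroblast-like 271 and 483. Macrophage/dendritic-like nuclei numbered 289 and 1111, and T cell-like nuclei 121 and 748. A cluster of 434 and 370 nuclei led by mitochondrial genes stayed unnamed, and so did a cluster of 35 and 88 with mixed markers. B cell-like nuclei, 9 and 58, were too few to describe. Of 12 adipocyte markers, 9 were higher in adipocyte-like than in other nuclei with the label *Wtap* flox/flox, and 12 with the label *Wtap*-BKO. All 8 endothelial and all 9 fibroblast markers were higher in their own class in both libraries, as were 8 and 9 of 9 T cell markers.

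Adipocyte RNA was present in every class. The 12 adipocyte markers summed to 14714 and 17233 CPM in adipocyte-like nuclei, and to between 5534 and 9842 CPM in the other 5 named classes and the unnamed mitochondrial nuclei, with no marker at 0. Fibroblast markers in adipocyte-like nuclei summed to 192 and 554 CPM, and macrophage markers to 66.3 and 130 CPM. The part of such RNA in the levels given below was not tested. Scrublet called 3 and 0 nuclei as doublets, so its calls were not used and doublets were not removed.

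Summed over the 10 genes, the *Wtap* flox/flox library had 2378 UMIs and the library labelled *Wtap*-BKO 12080. The CPM over all nuclei was 221 (212 to 230) and 866 (851 to 882), a log2 ratio of 1.97 (1.91 to 2.04). Within the *Wtap* flox/flox library, the 7 classes with at least 100 nuclei per library lay close together, from 161 in unnamed mitochondrial nuclei to 259 in macrophage/dendritic-like nuclei, a range of 1.60-fold. Within the other library they spread over 5.48-fold, from 397 in unnamed mitochondrial nuclei to 2178 in fibroblast-like nuclei. The log2 ratio was 3.10 (2.77 to 3.44) in fibroblast-like nuclei, 2.66 (2.46 to 2.85) in endothelial-like nuclei and 2.65 (2.33 to 2.98) in pericyte-like nuclei. It was 1.80 (1.72 to 1.87) in adipocyte-like nuclei, 1.28 (0.77 to 1.85) in T cell-like nuclei and 1.22 (0.90 to 1.57) in macrophage/dendritic-like nuclei. Thus all classes were higher in the library labelled *Wtap*-BKO, with the stromal and vascular classes furthest apart from their counterparts.

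Over all nuclei, 8 of the 10 genes were at least 2-fold higher in the library labelled *Wtap*-BKO, against 19.8% of the 16290 genes with 20 or more UMIs over both libraries. The exceptions were *Jun* and *Nr4a2*. None of the 10 was at least 2-fold lower in any class with 20 UMIs of the gene. Of all genes, 2.81% were at least 2-fold lower over all nuclei and between 2.89% and 8.08% by class, so a count of 0 is near that share. In the plot of the level of each gene by class, most pairs of points stand apart for *Egr1*, *Junb* and *Nr4a1*, while *Jun* and *Nr4a2* overlap in most classes.

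**Figure D1:**
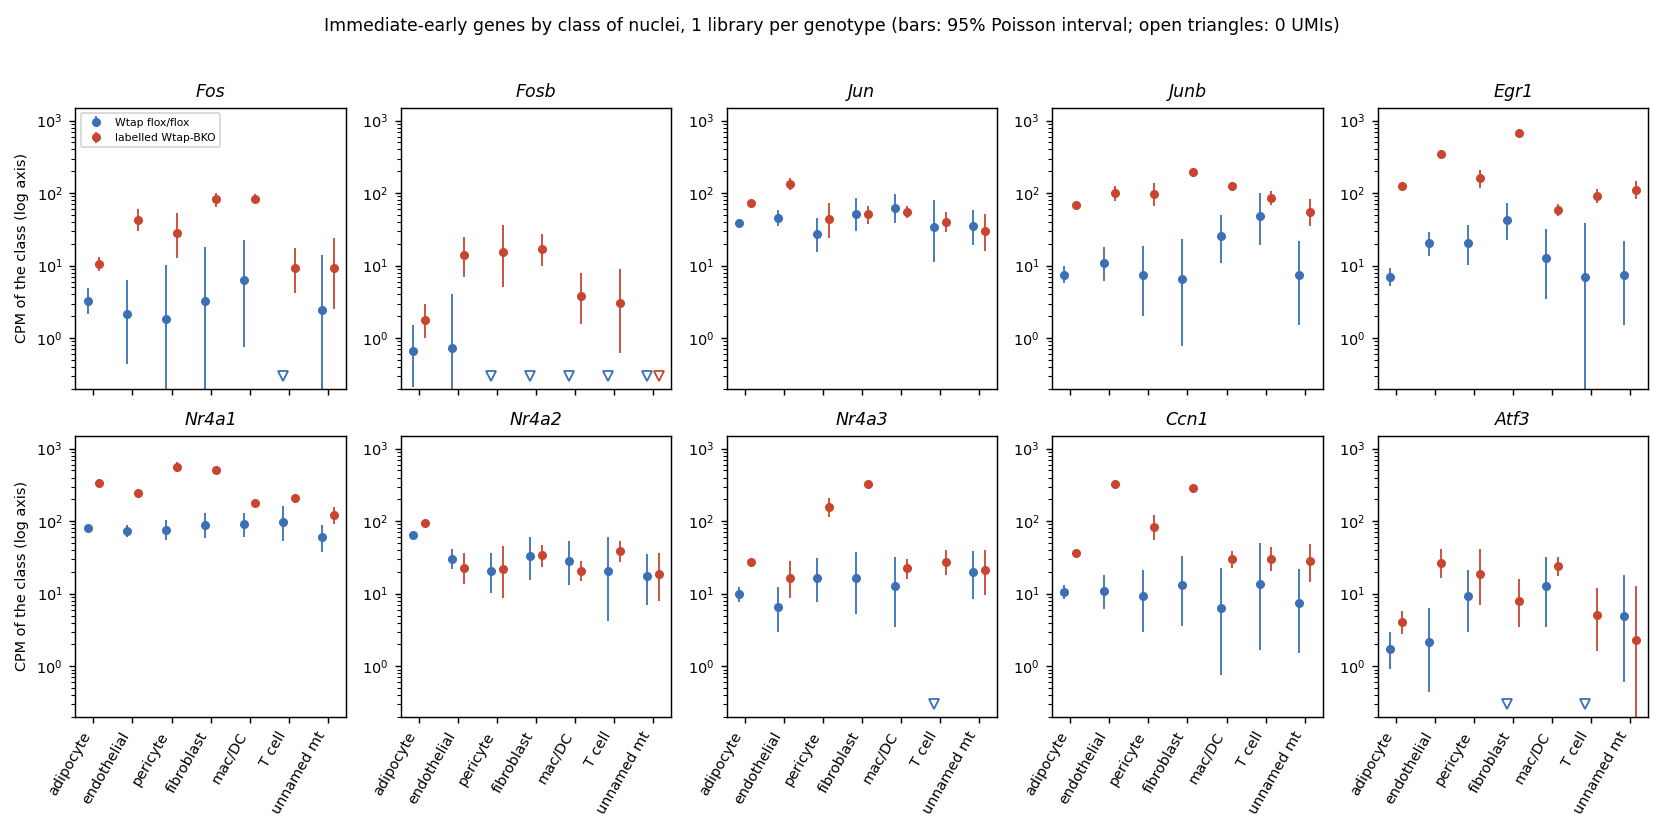
Level of each of the 10 genes (CPM of the class, log axis) in 7 classes of nuclei, with *Wtap* flox/flox in blue and the library labelled *Wtap*-BKO in red. Bars are 95% Poisson intervals, and open triangles near the base mark 0 UMIs. *Egr1* lay between 59.3 and 674 CPM in red and between 6.89 and 42.4 CPM in blue.

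Adipocyte-like nuclei, the cells in which UCP1-iCre is meant to act, had 1711 and 6526 UMIs of the 10 genes. Here 8 of 10 genes were at least 2-fold higher in the library labelled *Wtap*-BKO, against 14.7% of the 14090 genes tested in the class. In 7 of these 8 the interval of the ratio lay above 0, and *Fosb* was the exception. With mitochondrial UMIs out of the denominator the *Fosb* interval lay above 0 (0.03 to 3.38), and without cluster 10 that of *Atf3* spanned 0 (-0.04 to 2.13). The median log2 ratio was 1.57 for the 10 genes and 0.07 for all genes tested. *Egr1* had 53 UMIs (CPM 6.98) and 1053 UMIs (CPM 126), a log2 ratio of 4.18 (3.78 to 4.60). *Junb*, which encodes an AP-1 subunit, had 57 UMIs (CPM 7.51) and 577 UMIs (CPM 69.2), a log2 ratio of 3.20 (2.81 to 3.62). These genes led the class by ratio.

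The nuclear receptor genes held most of the UMIs in adipocyte-like nuclei. *Nr4a1* (chr15:101253902-101274795, build mm10) had 613 UMIs (CPM 80.8) and 2846 UMIs (CPM 341), a log2 ratio of 2.08 (1.95 to 2.21). *Nr4a3* had 75 and 228 UMIs (CPM 9.88 and 27.3), a log2 ratio of 1.47 (1.09 to 1.86). *Nr4a2* had 494 and 777 UMIs (CPM 65.1 and 93.1), and its log2 ratio of 0.52 (0.35 to 0.68) was the lowest of the 10. Adipocyte-like nuclei had the highest *Nr4a2* level of all 7 classes in both libraries. In the *Wtap* flox/flox library the interval, 59.5 to 71.1 CPM, overlapped those of fibroblast-like (15.7 to 60.05) and T cell-like nuclei (4.26 to 60.4). In the library labelled *Wtap*-BKO, its interval, 86.7 to 99.9 CPM, lay above the next class, T cell-like nuclei, at 38.5 (27.3 to 52.9).

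Of the other AP-1 genes in adipocyte-like nuclei, *Jun* had 295 and 608 UMIs (CPM 38.9 and 72.9), a log2 ratio of 0.91 (0.70 to 1.11). This is under 2-fold, but the ratio was 1.09 without nuclei over 5% mitochondrial UMIs and 1.02 with mitochondrial UMIs out of the denominator. *Fos* had 25 and 88 UMIs (CPM 3.29 and 10.5), with a log2 ratio of 1.68 (1.02 to 2.38). *Fosb*, at 5 and 15 UMIs, had a log2 ratio of 1.45 (-0.08 to 3.26), and *Atf3*, at 13 and 34 UMIs, one of 1.25 (0.29 to 2.30), or 0.999 and thus just under 2-fold when clustered on 8 PCs. The interval of *Fosb* spans 0, so it is counted among the 8 genes at least 2-fold higher by its ratio alone. With all UMIs in the denominator no difference was detectable for *Fosb* at this depth. The 2 genes were scarce in adipocyte-like nuclei of both libraries.

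*Ccn1* (chr3:145646971-145649985) had 81 and 300 UMIs in adipocyte-like nuclei (CPM 10.7 and 36.0), a log2 ratio of 1.75 (1.39 to 2.13). T cell-like nuclei, which are not known as a source of this matrix protein, had 13.8 and 30.4 CPM (intervals 1.67 to 49.8 and 20.5 to 43.4). The adipocyte-like level overlapped that of T cell-like nuclei in each library, and the part of free RNA in it was not tested. *Ccn1* is 1 of the 8 genes at least 2-fold higher in adipocyte-like nuclei, which leaves 7 of 9 without it. For the other genes no class is known to lack them.

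In endothelial-like nuclei the 10 genes had 281 and 1008 UMIs. At a resolution of 1.0 these nuclei fell into clusters of 378 and 592, 481 and 85, and 273 and 86 nuclei. The largest cluster thus differed between the libraries, and only in the library labelled *Wtap*-BKO did it hold most of the class. Among the 9 genes with at least 20 UMIs, 8 were at least 2-fold higher in the library labelled *Wtap*-BKO, against 14.7% of 9346 genes. The median log2 ratio was 3.19, against 0.35 for all genes tested in this class. *Ccn1* stood highest, with 15 UMIs (CPM 10.8) and 260 UMIs (CPM 330), a log2 ratio of 4.93 (4.18 to 5.79). *Egr1* had 28 and 276 UMIs (CPM 20.2 and 350), a log2 ratio of 4.11 (3.55 to 4.73). *Junb* had 15 and 78 UMIs (CPM 10.8 and 99.0), and *Nr4a1* had 102 and 192 UMIs (CPM 73.7 and 244). Their log2 ratios were 3.19 (2.38 to 4.10) and 1.73 (1.37 to 2.09).

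*Jun* was higher in endothelial-like nuclei as well, with 63 and 105 UMIs (CPM 45.5 and 133) and a log2 ratio of 1.55 (1.09 to 2.02). In the library labelled *Wtap*-BKO this class had the highest *Jun* level, and its interval of 109 to 161 CPM lay above the next, 67.2 to 78.9 in adipocyte-like nuclei. *Fos* (3 and 34 UMIs) and *Atf3* (3 and 21 UMIs) had log2 ratios of 4.32 (2.65 to 6.66) and 3.62 (1.88 to 6.01). *Nr4a2* had 42 and 18 UMIs (CPM 30.3 and 22.9), a log2 ratio of -0.41 (-1.29 to 0.42). It was the only one of the 9 genes lower in this class in the library labelled *Wtap*-BKO, within counting error.

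Endothelial-like nuclei also held the marker RNA of other classes. Their 12 adipocyte markers summed to 8113 and 7787 CPM, their 9 fibroblast markers to 309 and 901 CPM and their 8 endothelial markers to 2520 and 4630 CPM. Leaving out the nuclei with the highest doublet scores gave a log2 ratio of the summed genes of 2.91, and cluster 3 alone, the larger of 2 endothelial-like clusters, one of 2.79 (2.56 to 3.02). Cluster 11, the smaller, held 91 and 149 UMIs of the 10 genes, with a ratio of 2.07 on the log2 scale (1.68 to 2.46) and 1 UMI of *Fos* in each library. The split was chosen after seeing the data.

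Fibroblast-like nuclei, which include adipocyte progenitors, had 78 UMIs of the 10 genes in the *Wtap* flox/flox library and 2178 in the library labelled *Wtap*-BKO. Their 9 fibroblast markers summed to 6138 and 12247 CPM and their median depth was 921 and 1590 UMIs, and the part of these shifts in the ratios below was not tested. Of 8 genes with at least 20 UMIs, 6 were at least 2-fold higher in the latter, against 11.2% of 8351 genes. The median log2 ratio was 4.14, against 0.08 for all genes tested. *Egr1* had 13 UMIs (CPM 42.4) and 674 UMIs (CPM 674), the highest level of this gene in the 7 classes, with a log2 ratio of 3.99 (3.21 to 4.91). *Junb* (chr8:84976909-84978748) had 2 and 194 UMIs (CPM 6.53 and 194), a log2 ratio of 4.89 (3.02 to 7.95). *Ccn1* had 4 and 285 UMIs (CPM 13.1 and 285), a log2 ratio of 4.45 (3.08 to 6.33). Fibroblast-like nuclei of the library labelled *Wtap*-BKO thus had the highest *Egr1* and *Junb* levels, with intervals above those of the other 6 of the 7 classes.

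*Nr4a3* (chr4:48045078-48086447) set the fibroblast-like class apart from the endothelial-like class. It had 5 UMIs (CPM 16.3) and 321 UMIs (CPM 321) in fibroblast-like nuclei, with a log2 ratio of 4.30 (3.06 to 5.93). In endothelial-like nuclei it had 9 UMIs (CPM 6.50) and 13 UMIs (CPM 16.5), a log2 ratio of 1.34 (0.01 to 2.75). That ratio was not stable, at 0.53 (-1.89 to 2.96) without nuclei over 5% mitochondrial UMIs, 0.86 without the highest doublet scores and 0.96 with median-of-ratios scaling, so that 1 of the 8 genes at least 2-fold higher in endothelial-like nuclei falls under 2-fold in each. The intervals of the levels in the library labelled *Wtap*-BKO, 287 to 358 CPM and 8.79 to 28.2 CPM, lay apart. *Ccn1* showed no such split, at 330 (291 to 373) and 285 (253 to 320) CPM in endothelial- and fibroblast-like nuclei labelled *Wtap*-BKO.

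*Fos* had 1 and 82 UMIs in fibroblast-like nuclei (CPM 3.27 and 82.0), and *Nr4a1* had 27 and 512 UMIs (CPM 88.2 and 512). The log2 ratios were 4.65 (2.13 to 9.97) and 2.54 (1.98 to 3.15). *Jun* had 16 and 51 UMIs (CPM 52.2 and 51.0) and *Nr4a2* had 10 and 34 UMIs (CPM 32.7 and 34.0). Their log2 ratios were -0.03 (-0.87 to 0.88) and 0.06 (-0.99 to 1.24), so any difference up to these bounds was not detectable at this depth.

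Pericyte-like nuclei shared part of this pattern. Of 6 genes with 20 UMIs, 5 were at least 2-fold higher in the library labelled *Wtap*-BKO, against 8.17% of 6684 genes. *Nr4a1* had 41 UMIs (CPM 75.7) and 178 UMIs (CPM 556), a log2 ratio of 2.88 (2.38 to 3.41). In the *Wtap* flox/flox library pericyte-like nuclei ranked 5 of the 7 classes for this gene. In the library labelled *Wtap*-BKO they had its highest level of the 7 classes, though the interval overlapped that of fibroblast-like nuclei. *Nr4a3* had 9 and 50 UMIs (CPM 16.6 and 156), a log2 ratio of 3.23 (2.20 to 4.44). *Ccn1* had 5 and 27 UMIs (CPM 9.23 and 84.4), and *Egr1* had 11 and 51 (CPM 20.3 and 159). *Nr4a3* was thus high in both mural and fibroblast-like nuclei of that library and low in endothelial-like nuclei.

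In macrophage/dendritic-like nuclei, 4 of 9 genes were at least 2-fold higher in the library labelled *Wtap*-BKO, against 12.7% of 9990 genes. *Fos* led, with 2 UMIs (CPM 6.31) and 152 UMIs (CPM 83.5), a log2 ratio of 3.73 (1.85 to 6.79). *Junb* had 8 and 225 UMIs (CPM 25.2 and 124), a log2 ratio of 2.29 (1.29 to 3.52). *Egr1*, at 4 and 108 UMIs (CPM 12.6 and 59.3), was at its lowest level of the 7 classes in that library. Macrophage/dendritic-like nuclei therefore stood beside the fibroblast-like nuclei for *Fos*, at 83.5 (70.7 to 97.8) and 82.0 (65.2 to 102) CPM, and far below them for *Egr1*. In T cell-like nuclei of that library *Fos* was at 9.13 CPM (4.17 to 17.3), which overlapped adipocyte-like and unnamed mitochondrial nuclei. In macrophage/dendritic-like nuclei *Jun* (20 and 101 UMIs) and *Nr4a2* (9 and 38 UMIs) had log2 ratios of -0.19 (-0.89 to 0.59) and -0.44 (-1.52 to 0.79). At a resolution of 1.0 this class fell into a cluster of 250 and 656 nuclei, with *Cd163* and *Mrc1* among its leading genes, and one of 40 and 454, with *Clec9a* among them. Its make-up thus differed between the libraries, and the part of this in the ratios was not tested.

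T cell-like nuclei had 3 of 7 genes, *Egr1*, *Nr4a1* and *Ccn1*, at least 2-fold higher in the library labelled *Wtap*-BKO, against 17.5% of 8351 genes. *Egr1* had 1 and 90 UMIs (CPM 6.89 and 91.3), and *Nr4a1*, a gene induced by antigen receptor signalling, had 14 and 203 UMIs (CPM 96.4 and 206). The log2 ratios were 3.73 (1.21 to 9.05) and 1.09 (0.31 to 1.99). That of *Ccn1*, on 2 and 30 UMIs, was 1.14 (-0.84 to 4.25). At a resolution of 1.0 the T cell-like nuclei fell into a cluster of 21 and 502 nuclei, led by *Themis*, and one of 104 and 256 nuclei, led by the immunoglobulin genes *Igha* and *Jchain*, so that different cells made up most of the class in each library. *Nr4a3* had 0 and 27 UMIs, a ratio of at least 1.33-fold against 3 UMIs in the *Wtap* flox/flox library. In the unnamed mitochondrial nuclei, 3 of 4 genes were at least 2-fold higher, against 11.1% of 3750 genes, with *Egr1* at 3 and 48 UMIs (CPM 7.45 and 111). The map of log2 ratios sets out these differences between classes.

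**Figure D2:**
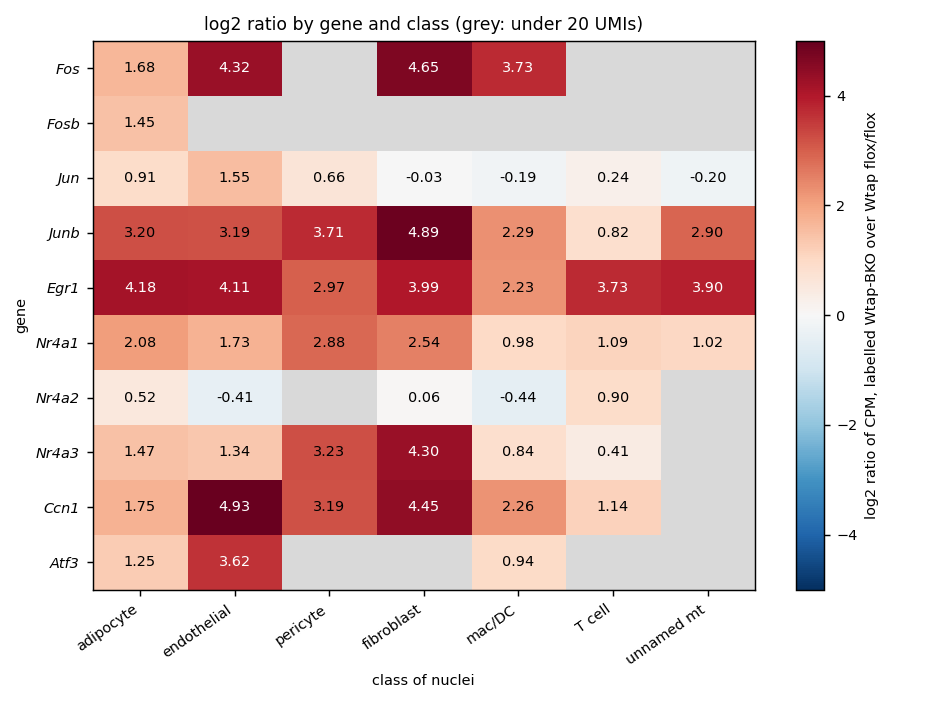
log2 ratio of CPM, *Wtap*-BKO over *Wtap* flox/flox by label, for 10 genes (rows) in 7 classes of nuclei (columns). Grey cells had under 20 UMIs in both libraries together, and the T cell *Nr4a3* value is a lower bound. *Egr1* was above 2 in every class, while *Jun* and *Nr4a2* stayed between -0.44 and 1.55.

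The make-up of the summed signal also changed. In the *Wtap* flox/flox library *Nr4a1* held 35.8% of the UMIs of the 10 genes in adipocyte-like nuclei, 36.3% in endothelial-like nuclei and 34.6% in fibroblast-like nuclei. In the library labelled *Wtap*-BKO it held 43.6%, 19.0% and 23.5%. *Egr1* there held 16.1%, 27.4% and 30.9%, and *Ccn1* 4.60%, 25.8% and 13.1%. In the *Wtap* flox/flox library *Egr1* held 3.10%, 9.96% and 16.7%, and *Ccn1* 4.73%, 5.34% and 5.13%, in the same order. The ratios between the genes therefore differed from class to class in both libraries.

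To compare shares of nuclei, each nucleus was thinned to 1000 UMIs and shallower nuclei were left out, 5123 in the *Wtap* flox/flox library and 2852 in the library labelled *Wtap*-BKO. A nucleus with UMIs of at least 2 different genes of the 10 is called responding. Responding nuclei made up 1.78% (78 of 4371, 1.41 to 2.22) and 14.7% (873 of 5920, 13.9 to 15.7). Without thinning the shares were 2.33% and 23.4%. In adipocyte-like nuclei they were 1.92% (63 of 3283) and 13% (499 of 3839), or 2.28% and 23.6% without thinning. In endothelial-like nuclei they were 1.27% (6 of 474) and 22.0% (50 of 227), after 665 and 544 shallower nuclei were left out. The share of responding nuclei was higher in the library labelled *Wtap*-BKO in all 7 classes, with intervals apart in adipocyte-, endothelial-, pericyte-, fibroblast- and macrophage/dendritic-like nuclei.

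Fibroblast-like nuclei had 43.5% responding nuclei (166 of 382, 38.4 to 48.6) in the library labelled *Wtap*-BKO, the highest share of the 7 classes there, and 0.840% (1 of 119, 0.0213 to 4.59) in the *Wtap* flox/flox library. Pericyte-like nuclei were at 22.2% (24 of 108, 14.8 to 31.2) in the former. In the latter they were at 0 of 167, with an exact upper bound of 2.18%. The intervals of all 7 classes overlapped in the *Wtap* flox/flox library. Macrophage/dendritic-like nuclei were at 2.46% (3 of 122) and 10.7% (80 of 748), and T cell-like nuclei at 3.28% (2 of 61) and 8.99% (33 of 367). The T cell-like intervals, 0.400 to 11.4% and 6.27 to 12.4%, overlap. Fibroblast-like nuclei made up 6.45% of the thinned nuclei of the library labelled *Wtap*-BKO and 19.0% of its responding nuclei. Adipocyte-like nuclei made up 64.8% and 57.2%.

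Shares were also taken for single genes. *Egr1* was seen in 0.548% and 9.74% of adipocyte-like nuclei, in 3.36% and 44.0% of fibroblast-like nuclei and in 1.64% and 5.61% of macrophage/dendritic-like nuclei. *Ccn1* was seen in 22.0% of endothelial-like and 16.5% of fibroblast-like nuclei labelled *Wtap*-BKO, against 2.72% of T cell-like and 2.94% of adipocyte-like nuclei. *Nr4a3* reached 17.8% and 16.7% of fibroblast-like and pericyte-like nuclei labelled *Wtap*-BKO, and 2.20% of endothelial-like nuclei. *Nr4a1* was seen in 7.43% and 25.7% of adipocyte-like nuclei. Each share in this paragraph is taken at 1000 UMIs per nucleus.

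**Figure D3:**
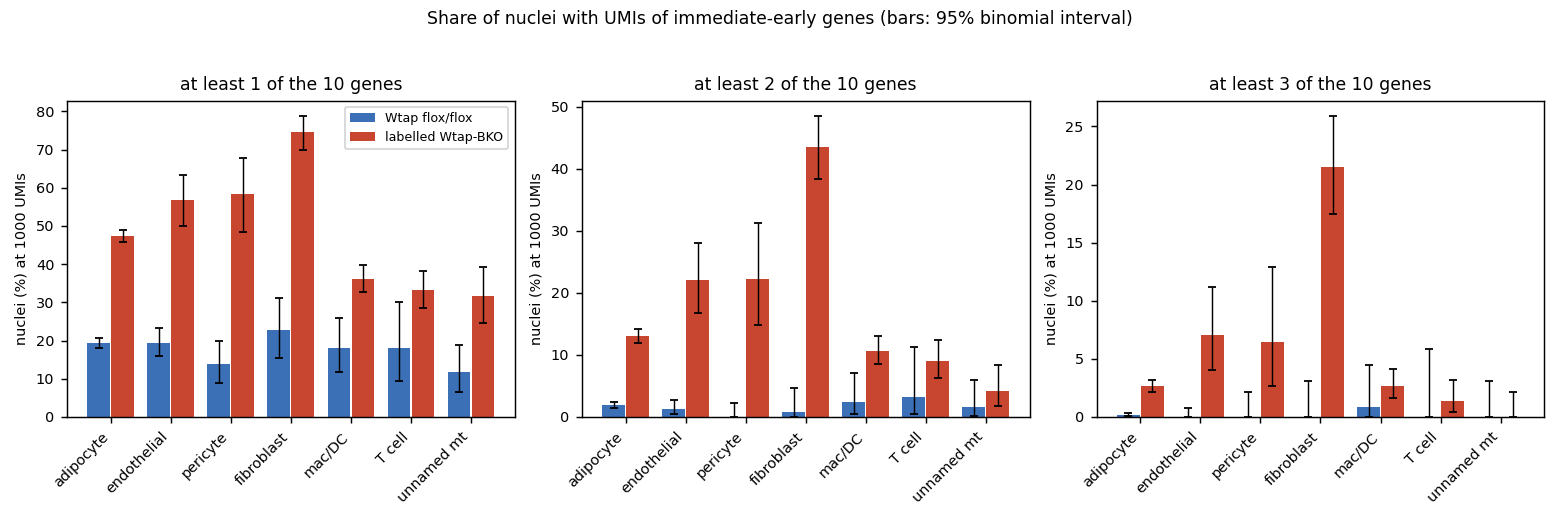
Share of nuclei (%), thinned to 1000 UMIs, with UMIs of at least 1, 2 or 3 of the 10 genes (panels) by class, *Wtap* flox/flox in blue and the library labelled *Wtap*-BKO in red. Bars with 95% binomial intervals show 43.5% of fibroblast-like nuclei labelled *Wtap*-BKO with at least 2 of the genes, and 21.5% with at least 3.

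Single nuclei of the *Wtap* flox/flox library had UMIs of up to 4 of the 10 genes, reached in 3 nuclei, and those of the library labelled *Wtap*-BKO of up to 7, reached in 1 nucleus. Responding nuclei held 47.2% of the UMIs of these genes in thinned adipocyte-like nuclei labelled *Wtap*-BKO and 18.5% in the *Wtap* flox/flox library. In fibroblast-like nuclei labelled *Wtap*-BKO they held 81.8%. The remaining UMIs lay in nuclei with a single gene detected.

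To describe co-detection, the nuclei with UMIs of both genes of a pair were set against the product of both shares, within a class and library. Only pairs with a product of at least 5 nuclei were taken, and no p is given. In adipocyte-like nuclei labelled *Wtap*-BKO, 16 of 21 pairs lay above the product, with a median ratio of 1.28 and a range of 0.643 to 1.75. In fibroblast-like nuclei 13 of 14 pairs lay above it, with a median of 1.31. In endothelial-like nuclei all 5 pairs did, with a median of 1.48, and in macrophage/dendritic-like nuclei all 3 did, with a median of 1.67. In the *Wtap* flox/flox library only 3 pairs, all in adipocyte-like nuclei, could be taken, at ratios of 1.10 to 1.42.

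*Egr1* and *Nr4a1* occurred together in 135 adipocyte-like nuclei labelled *Wtap*-BKO, against 96.0 by the product of shares. They did so in 78 fibroblast-like nuclei against 60.3, and in 15 macrophage/dendritic-like nuclei against 6.29. Within the adipocyte-like clusters the ratio for this pair was 1.31 in cluster 2, 2.22 in cluster 8, 0.986 in cluster 10, 1.44 in cluster 0 and 1.37 in cluster 1. The largest ratios in adipocyte-like nuclei were within the receptor family, *Nr4a2* with *Nr4a3* at 1.75 (11 nuclei) and *Nr4a1* with *Nr4a3* at 1.64 (32 nuclei). Within single clusters the latter pair could be taken in clusters 2 and 0 alone, at 1.16 and 1.36, and the former in none. The lowest was *Nr4a2* with *Ccn1*, at 0.643 (6 nuclei).

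**Figure D4:**
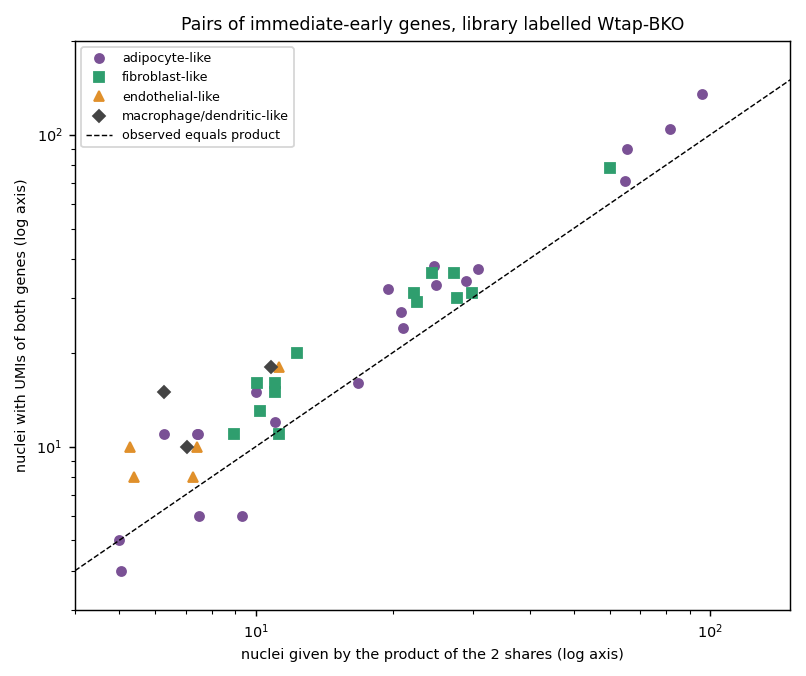
Nuclei labelled *Wtap*-BKO with UMIs of both genes of a pair (vertical, log axis) against the number given by the product of both shares (horizontal, log axis), each point a pair in 1 class. Points above the dashed line of equality make up 16 of 21 adipocyte-like, 13 of 14 fibroblast-like, 5 of 5 endothelial-like and 3 of 3 macrophage/dendritic-like pairs.

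The number of nuclei with several genes was then set against independent detection. In adipocyte-like nuclei labelled *Wtap*-BKO, 499 nuclei had at least 2 of the genes, against 462 if each gene were detected independently at its own share. At least 3 genes were seen in 101 nuclei against 60.7, and at least 4 in 15 against 4.62. In fibroblast-like nuclei the numbers were 166 against 177, 82 against 61.5 and 30 against 13. Fibroblast-like nuclei with none of the genes were also more numerous than under independence, 97 against 64.8. In both classes the genes were thus found in single nuclei together more often than their shares alone give at 3 or 4 genes, while the count at 2 genes was close to it.

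Responding and other nuclei were then compared within a class. In adipocyte-like nuclei labelled *Wtap*-BKO, the median depth was 1643 and 1708 UMIs, mitochondrial genes took 10.8% and 11.9% of UMIs, and 1.60% and 1.71% were among the nuclei with the highest doublet scores. Of 1807 genes outside the 10, 5 were at least 2-fold higher in responding nuclei. All 5 are interferon-inducible or lead the interferon-responsive cluster, with the highest ratios for *Gbp2*, a guanylate-binding GTPase (log2 ratio 1.40, 1.08 to 1.71), and *Iigp1*, an immunity-related GTPase (1.14, 0.998 to 1.29). *Gbp6* followed at 1.10, *Samhd1* at 1.10 and *Gm4951* at 1.06. Without cluster 10, the interferon-responsive cluster, none of 1769 genes was 2-fold higher. The log2 ratios were then 0.07 (-0.81 to 0.86) for *Gbp2* and 0.19 (-0.18 to 0.54) for *Iigp1*. Of the wider primary-response genes described below, 0 of 7 were 2-fold higher in responding adipocyte-like nuclei of this library. Their median log2 ratio was 0.29, or 0.25 without cluster 10, against 0.03 and 0.04 for all genes taken. In endothelial-like nuclei of this library 2 of 2 were 2-fold higher, against 2.67% of 486 genes.

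In the *Wtap* flox/flox library, none of 722 genes was 2-fold higher in the 63 responding adipocyte-like nuclei. *Peak1*, a pseudokinase, had the highest log2 ratio at 0.96 (0.26 to 1.59), followed by *Erc1* (0.95), *Sorcs2* (0.94), *Banp* (0.89) and *Ldlrad4* (0.88). Among endothelial-like nuclei labelled *Wtap*-BKO, 34.0% of responding and 44.1% of other nuclei were among those with the highest doublet scores. There, 13 of 486 genes were at least 2-fold higher in the 50 responding nuclei. *Mgp*, a matrix protein that inhibits calcification, had 22 UMIs in responding and 18 in other nuclei, a log2 ratio of 2.48 (1.51 to 3.47). *Kirrel3* (1.82), the primary-response gene *Btg2* (1.73, 0.84 to 2.59), *Plgrkt* (1.32) and *Lmo7* (1.30) came next. In *Wtap* flox/flox endothelial-like nuclei, 6 of them responding, 25 genes could be taken, led by *Coq8a* (1.26), *Gpd1* (0.76), *Sptbn1* (0.69), *mt-Co3* (0.44) and *mt-Nd3* (0.43).

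Adipocyte-like nuclei fell into 5 clusters. The interferon-responsive cluster 10 had 37 and 843 UMIs of the 10 genes, 203 (143 to 280) and 1313 (1226 to 1405) CPM, a log2 ratio of 2.69 (2.22 to 3.21). The white-like cluster 8 had 149 (107 to 202) and 511 (470 to 554) CPM, a log2 ratio of 1.78 (1.32 to 2.27), and cluster 2, with the brown program, had 238 and 783 CPM, a log2 ratio of 1.72 (1.58 to 1.86). Clusters 0 and 1 had log2 ratios of 1.92 (1.79 to 2.05) and 1.67 (1.51 to 1.83). Cluster 10 thus stood above the other 4 clusters in the library labelled *Wtap*-BKO and not in the *Wtap* flox/flox library, where its interval overlapped those of all 4.

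In cluster 10, *Nr4a1* was at 82.3 and 559 CPM, *Egr1* at 10.97 and 274 CPM, and *Junb* at 5.49 and 125 CPM, on 15 and 359, 2 and 176, and 1 and 80 UMIs. *Nr4a3* had 0 and 35 UMIs, at least 3.31-fold against 3 UMIs. Responding nuclei made up 1.12% (1 of 89) and 27.9% (83 of 297, 22.9 to 33.4) of cluster 10. They made up 1.63% and 13.5% of cluster 2, 2.27% and 8.82% of cluster 8, 1.499% and 13.5% of cluster 0, and 3.06% and 10.3% of cluster 1. *Jun* in cluster 8 had 6 and 15 UMIs (CPM 21.8 and 13.3). Its level labelled *Wtap*-BKO, with an interval of 7.47 to 22.0 CPM, lay below those of the other 4 clusters, while its log2 ratio of -0.71 (-2.15 to 0.95) had an interval that overlapped theirs.

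**Figure D5:**
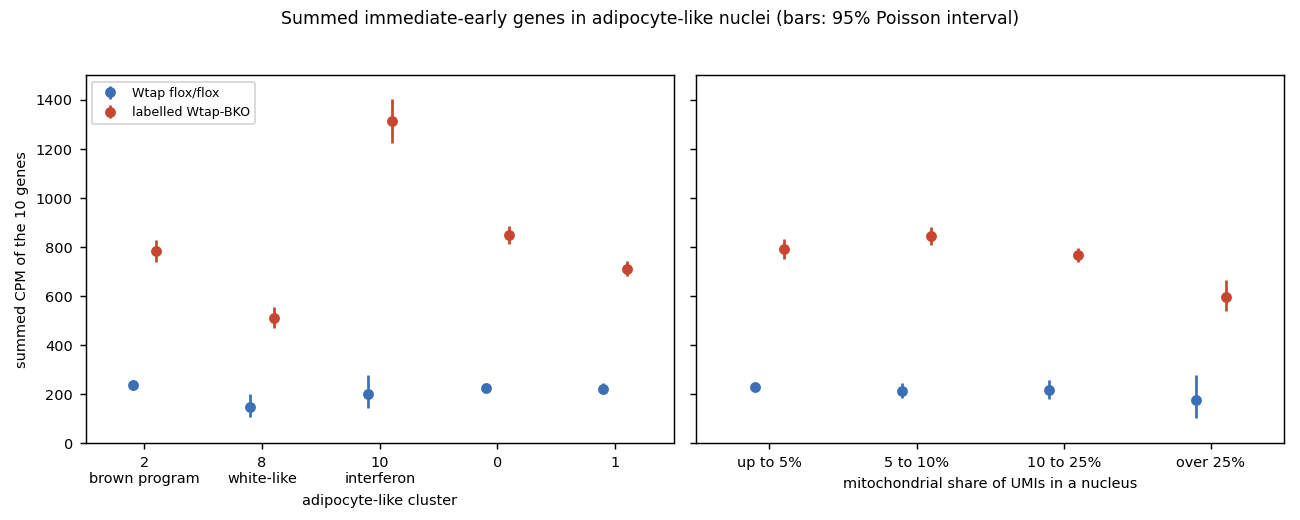
Summed CPM of the 10 genes in adipocyte-like nuclei by cluster (left) and by mitochondrial share of a nucleus (right), *Wtap* flox/flox in blue and the library labelled *Wtap*-BKO in red, with 95% Poisson intervals. Cluster 10 labelled *Wtap*-BKO stands at 1313 CPM, above the other red points at 511 to 849.

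Mitochondrial RNA differed between the libraries, with over 5% mitochondrial UMIs in 23.1% and 78.6% of adipocyte-like nuclei. Within bins of mitochondrial share, the log2 ratio of the summed genes in these nuclei was 1.79 (1.68 to 1.90) up to 5%, 1.98 (1.78 to 2.19) from 5 to 10%, 1.81 (1.56 to 2.08) from 10 to 25% and 1.77 (1.07 to 2.57) over 25%. It was thus about as large in nuclei with little mitochondrial RNA as in all adipocyte-like nuclei. In endothelial-like nuclei it was 2.83 (2.47 to 3.22), 2.59 (2.18 to 3.01), 2.35 (2.001 to 2.71) and 1.76 (1.10 to 2.40) in the same bins. *Nr4a3* in adipocyte-like nuclei labelled *Wtap*-BKO was at 43.0 CPM up to 5% and at 14.9 CPM from 10 to 25%, and its log2 ratio was 2.06 and 0.56.

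The wider set of primary-response genes, 38 genes chosen with earlier results of these data known, was looked at beside the 10. Over all nuclei 22 of 37 with 20 UMIs were at least 2-fold higher in the library labelled *Wtap*-BKO and none at least 2-fold lower, against 19.8% and 2.81% of all genes. The median log2 ratio was 1.31, against 0.22 for all genes. The highest were *Arc*, with 3 and 43 UMIs (3.47, 1.83 to 5.80), *Egr2*, a relative of *Egr1*, with 9 and 89 UMIs (2.93), and *Dusp5*, a phosphatase of ERK, with 19 and 179 UMIs (2.86). The lowest were *Trib1*, with 677 and 503 UMIs (-0.80, -0.97 to -0.63), and *Nfil3*, a repressor of circadian genes, with 309 and 208 UMIs (-0.94, -1.20 to -0.69). By class, 21 of 36 were at least 2-fold higher in adipocyte-like, 14 of 27 in endothelial-like, 13 of 23 in pericyte-like, 13 of 28 in fibroblast-like, 8 of 33 in macrophage/dendritic-like and 12 of 27 in T cell-like nuclei. Over all genes tested in these classes the shares were 14.7%, 14.7%, 8.17%, 11.2%, 12.7% and 17.5%, in the same order.

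Heat shock genes respond to protein damage. Of 12, *Hspa1b* alone, with 5 and 21 UMIs, was at least 2-fold higher over all nuclei, against 19.8% of all genes (1.70, 0.25 to 3.46). *Hspa5*, a chaperone of the endoplasmic reticulum, had 1219 and 2746 UMIs (0.80, 0.70 to 0.90), *Hspa1a* 8 and 16 UMIs (0.63, -0.68 to 2.06), *Hspb1* 54 and 57 (-0.29, -0.86 to 0.27) and *Hsph1* 289 and 258 (-0.54, -0.78 to -0.29). The median log2 ratio of the 12 was 0.45, against 0.22 for all genes. In macrophage/dendritic-like nuclei 2 of 8 were at least 2-fold higher and 1 lower, against 12.7% and 6.10% of all genes, with a median of 0.56, beside 0.59 for the wider primary-response genes there. In each of the other 5 named classes 0 or 1 was at least 2-fold higher, against between 8.17% and 17.5% of all genes there. At least 2-fold lower were 2 of 8 in pericyte-like (median -0.28) and 1 of 9 in fibroblast-like nuclei, against 4.02% and 4.51% of all genes.

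Of 21 genes for the upstream regulators of this response, none was 2-fold higher or lower over all nuclei, with a median log2 ratio of -0.02, against 0.22 for all genes. *Mef2c* (0.87, 0.68 to 1.06), *Mrtfa*, a coactivator of serum response factor (0.82, 0.69 to 0.95), and *Elk3* (0.78, 0.56 to 0.999) were highest. *Mef2a* (-0.33, -0.40 to -0.26) and *Prkacb*, a catalytic subunit of protein kinase A (-0.47, -0.62 to -0.33), were lowest. By class, 4 of 19 were at least 2-fold higher in endothelial-like nuclei (median 0.50), against 14.7% of all genes there, where the median was 0.35. In T cell-like nuclei 3 of 19 were higher and 2 lower, against 17.5% and 8.08% of all genes. In pericyte-like nuclei 2 of 18 were higher and 1 lower, against 8.17% and 4.02% of all genes. In adipocyte-, fibroblast- and macrophage/dendritic-like nuclei 0 of 21, 1 of 20 and 1 of 19 were higher, against 14.7%, 11.2% and 12.7% of all genes. None was at least 2-fold lower in these classes. Of the 13 other targets of YAP and of MRTF with 20 UMIs, the class of genes to which *Ccn1* belongs, 6 were at least 2-fold higher, against 19.8% of all genes, with a median log2 ratio of 0.84, against 0.22. *Thbs1* had 36 and 372 UMIs (2.997, 2.50 to 3.53) and *Tagln* 32 and 132 (1.67, 1.11 to 2.28). *Vcl* (0.11, -0.01 to 0.23) and *Tpm1* (-0.05, -0.27 to 0.18) were lowest.

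The genes most like the summed 10 in their pattern over the 7 classes and both libraries, 14 points in all that share libraries and depth, were sought among 7262 genes. They were *Atf4* (Pearson r 0.931 of log2(CPM + 1)), the effector of the integrated stress response, *Plin2* (0.887), a lipid droplet coat protein, *Zfp36* (0.876), an mRNA decay factor, *Zfp949* (0.873) and *Btg2* (0.839), a p53-responsive antiproliferative gene. The median r was 0.543 over the 26 wider primary-response genes among them and 0.224 over all 7262. *Zfp36* and *Btg2* are themselves in the wider list. These correlations are a description of 2 libraries.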

How the data were processed

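Nuclei from frozen iBAT were profiled by droplet-based snRNA-seq. Per the file headers, the authors counted reads with Cell Ranger 5.0.0 and deposited raw UMI counts per gene and nucleus. Per the labels, the build was mm10, and the treatment of intronic reads was not given in the sources used here. Positions are from RefSeq genes of GRCm38.p6, matched by symbol for 10 of 10 genes. The counts were used without a further filter.

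Nuclei were clustered with Seurat 5.3.0 in R 4.3.3 (2000 variable features, without the 10 genes and the wider primary-response genes, integration by canonical correlation analysis, 20 PCs, resolution 0.5). Non-adipocyte classes were named where 3 or more markers reached 2 times the CPM of other nuclei. The remaining clusters were called adipocyte-like when at least 50% of adipocyte markers had 1.5 times the CPM of the named classes. UMIs were summed per library and class. Intervals are exact Poisson for CPM, exact binomial (Clopper-Pearson) for shares and exact conditional for log2 ratios, all at 95%, and cover counting error only. A library at 0 was set to 3 UMIs and the ratio given as a bound, also within medians and counts. Lists were described over genes with 20 or more UMIs over both libraries. Scrublet (scanpy 1.11.5) gave doublet scores. Intervals were tested on counts simulated under the Poisson model that they assume, which does not check that model. Thinning was tested on part of the real nuclei.

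The 10 genes and all lists were chosen with earlier results of these data known. Named beyond the 10 were the 3 highest and 2 lowest of each list over all nuclei, the 5 genes most like the summed pattern (CPM of at least 50 in 1 class), and the 5 highest in responding nuclei (CPM of at least 100 and at least 20 UMIs). *Gbp2*, *Iigp1* and the other 3 genes were followed without cluster 10 after their values were seen. The values of a further gene that the rule for named genes picked are not reported here.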

Additional observations from a re-analysis of the deposited data

How the results depend on the processing

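No paired analysis was possible because each genotype had 1 library. Values are log2 ratios, *Wtap*-BKO over *Wtap* flox/flox by label. All 62 values of the summed genes (7 results, 0.99 to 3.32) and all 43 of the share of responding nuclei (6 results, 0.54 to 5.78) stayed above 0. A ratio of shares with 0 responding nuclei in a library is a bound and was left out. This took out pericyte-like nuclei, and endothelial-, fibroblast- and T cell-like nuclei with at least 3 genes required. Of the single genes, *Jun* and *Nr4a2* in fibroblast-like nuclei (-0.03 and 0.06), whose intervals span 0, took both signs, from -0.19 to 0.014 and from -0.36 to 0.10. For the summed genes over all nuclei (1.97), removing nuclei with over 5% mitochondrial UMIs gave 2.20, leaving mitochondrial UMIs out of the denominator 2.04, and median-of-ratios scaling 1.80. In adipocyte-like nuclei (1.80) the second of these gave 1.91, and leaving out *Nr4a1*, the gene with the most UMIs, 1.61. Leaving out cluster 10, chosen after seeing the data, gave 1.71. In endothelial-like nuclei (2.66), a minimum of 1000 UMIs gave 2.30, removal of the highest doublet scores 2.91 and median-of-ratios scaling 2.28. Leaving out *Nr4a1* there gave 3.002. Over both libraries *Egr1* had more UMIs in this class (28 and 276) than *Nr4a1* (102 and 192), and the value without *Egr1* was not taken. The share of responding nuclei moved most. Over all nuclei (3.05) it was 4.85 with at least 3 genes required, 4.03 when thinned to 500 UMIs and 2.37 when thinned to 2000. In adipocyte-like nuclei (2.76) it was 4.11 with at least 3 genes and 3.79 at 500 UMIs. In fibroblast-like nuclei (5.69) it fell to 2.68 at 2000 UMIs. In endothelial-like nuclei (4.12) it ran from 1.94 at 2000 to 5.61 at 500 UMIs, and in T cell-like nuclei (1.46) from 0.54 to 2.07 at the same depths. *Nr4a3* in adipocyte-like nuclei (1.47) was 2.06 without nuclei over 5% mitochondrial UMIs. Fibroblast-like nuclei ranged from 3.04 to 3.32 for the summed genes. The cause of these shifts was not tested. Depth limits *Fosb* and *Atf3* most, with 5 and 13 UMIs in *Wtap* flox/flox adipocyte-like nuclei, and *Wtap* flox/flox fibroblast-like nuclei, with 78 UMIs over the 10 genes.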
